A study of Mus musculus with 140 samples.

Results

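Transcription factors of the mesenchymal transition were followed as 7 genes, Twist1, Hand2, Snai1, Snai2, Zeb1, Zeb2 and Prrx1. Every probe set annotated to exactly 1 of these genes was a member, which gave 22 of the 45137 probe sets tested, 11 on the A array and 11 on the B array of the mouse set. The study grew CCE cells, a male 129/Sv mouse embryonic stem cell line, in 9 courses of 1 sample per day, and hybridised each of 70 RNA samples to both arrays. In 7 courses the cells carried a short hairpin RNA (shRNA) against Nanog, Oct4, Sox2, Esrrb, Tbx3, Tcl1 or the transcript named Mm343880, stayed in LIF (leukaemia inhibitory factor, which holds these cells undifferentiated) at 1000 units/ml, and were purified by their GFP every day from day 0, set 48 hours after transduction. In a further course the cells received 5 µM retinoic acid and no LIF. The empty vector course, treated like the knockdowns, was the reference for all 8. The Mm343880 and retinoic acid courses had 7 samples, days 0 to 6, and the other courses 8 samples, days 0 to 7. The labels describe neither transduction nor sorting of the retinoic acid cells, so retinoic acid, the loss of LIF and this handling cannot be told apart. No course was repeated and each target has 1 hairpin course, so p-values reflect only how far single samples lie from a smooth curve over the days, which may be technical in part, and the number of arrays limits every value.

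These proteins are best known from the change of epithelial into mesenchymal cells at gastrulation, in the neural crest and in carcinomas. Snai1 and Snai2 are zinc finger repressors that bind E boxes with the letters CACCTG, among them those of the E-cadherin gene Cdh1, and Zeb1 and Zeb2 are zinc finger homeodomain proteins that bind the same letters. Twist1 and Hand2 are basic helix-loop-helix factors that pair with E proteins, Twist1 in the mesoderm and cranial neural crest and Hand2 in the heart, limb bud and branchial arches. Prrx1 is a paired-type homeodomain protein of limb and craniofacial mesenchyme. Retinoic acid binds nuclear receptors and is a common means of driving stem cells out of self-renewal.

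The promoter windows of 3 members are shown because their genes were higher under retinoic acid and because Snai1 alone among the windows held the letters that the Snail and Zeb proteins bind. Each window runs from 250 bases before to 50 bases after the start given by RefSeq on GRCm38.p6, 5′ to 3′ on the plus strand, with capitals for CACCTG. The Snai1 window is chr2:167537945-167538244, the Twist1 window chr12:33957421-33957720 and the Hand2 window chr8:57320733-57321032.
Snai1: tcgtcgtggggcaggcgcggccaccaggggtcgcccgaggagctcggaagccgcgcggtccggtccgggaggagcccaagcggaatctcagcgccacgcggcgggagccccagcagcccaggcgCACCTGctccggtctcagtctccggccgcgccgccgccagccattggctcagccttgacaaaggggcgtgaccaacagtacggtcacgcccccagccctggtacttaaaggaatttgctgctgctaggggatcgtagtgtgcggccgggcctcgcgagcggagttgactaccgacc
Twist1: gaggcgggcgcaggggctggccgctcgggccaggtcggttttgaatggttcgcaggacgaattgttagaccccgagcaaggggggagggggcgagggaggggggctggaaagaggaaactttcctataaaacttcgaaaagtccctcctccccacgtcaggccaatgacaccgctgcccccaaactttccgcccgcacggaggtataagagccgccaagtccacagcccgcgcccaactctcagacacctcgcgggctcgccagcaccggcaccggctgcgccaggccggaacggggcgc
Hand2: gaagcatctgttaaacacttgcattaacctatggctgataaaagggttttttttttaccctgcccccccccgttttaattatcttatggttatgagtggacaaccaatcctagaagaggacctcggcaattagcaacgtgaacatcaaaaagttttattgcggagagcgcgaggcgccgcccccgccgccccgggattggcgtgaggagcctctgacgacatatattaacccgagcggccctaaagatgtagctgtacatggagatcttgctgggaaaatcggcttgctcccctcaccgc
Windows were matched by symbol for 5 of the 7 genes, all but Snai2 and Zeb1. In Snai1 the match starts 126 bases before the start of the gene. CACCTG was searched on both strands and stood in 20.2% of 32851 windows of this length, and in 1 of 8 windows of members. AGGTCA, the element from which nuclear receptor sites are built, stood in 16.3% of all windows and in 0 of the 8. A match is a run of letters, not a site shown to be bound.

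The probe sets of 1 gene were not equally informative. Twist1 and Snai1 each had 1 probe set, Snai2 2, Hand2 3, Zeb1 4, Zeb2 5 and Prrx1 6. A signal above the median of its table (283.3 on A, 89.1 on B) was reached on at least 3 samples by 13 of the 22, on all 70 samples by 2, and on none by 8. The 2 that were always above it, Zeb1 1443005_at and Zeb2 1458941_at, come from single expressed sequence tags and had late differences of retinoic acid from the empty vector of 0.69 and 0.52 on the log2 scale. For the probe sets made from the RefSeq transcripts, Zeb1 1418926_at and Zeb2 1422748_at, these were 2.99 and 2.22, so both kinds are given. On GRCm38 Twist1 lies on chromosome 12 at 33957671 to 33959831, Hand2 on chromosome 8 at 57320983 to 57324517, Snai1 on chromosome 2 at 167538195 to 167542814 and Snai2 on chromosome 16 at 14705852 to 14709395. Zeb1 lies on chromosome 18 at 5591327 to 5775468, Zeb2 on chromosome 2 at 44983512 to 45117442 and Prrx1 on chromosome 1 at 163245119 to 163315145.

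The targeted gene was lower in all 48 samples of the Nanog, Oct4, Sox2, Esrrb, Tbx3 and Tcl1 knockdowns than in any empty vector sample, with late differences from -3.08 for Tbx3 to -1.42 for Esrrb, and no check was made for Mm343880. The labelled cell type was checked on its own markers. Pou5f1, which encodes Oct4, had a signal of 11246 on day 0 and 66.2 on day 6 of the retinoic acid course, against 17380 on day 0 and 17590 on day 6 with the empty vector. All 6 stem cell markers measured (Pou5f1, Nanog, Sox2, Zfp42, Esrrb, Tdgf1) were lower late in the retinoic acid course than with the empty vector, and all 6 were far above the table median on every empty vector day. Median signals were higher on the retinoic acid arrays, at 342 ± 40.3 on A and 112 ± 12.0 on B (SD, n = 7), than on the empty vector arrays, at 282 ± 28.8 on A and 92.5 ± 9.11 on B (SD, n = 8). Over all probe sets the median late difference of retinoic acid from the empty vector was 0.10 on the log2 scale, and -0.08 after quantile normalization, and the differences below are to be read against it.

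In the retinoic acid course 6 of the 7 genes were higher than with the empty vector. Taking each gene by its probe set with the largest difference, Hand2, Snai2 and Twist1 differed most. The order was another one on the RefSeq-based probe sets, all on the A array. There the late differences were 3.92 for Twist1, 2.99 for Zeb1, 2.53 for Snai2, 2.22 for Zeb2, 1.45 for Hand2 and 0.72 for Snai1. Late values are the fitted curve averaged over days 4, 5 and 6 on a scale of log2(signal + pseudocount), which understates the change of low signals, and means with an SD are raw signals over those 3 days of 1 course. A call is an adjusted p below 0.05 over all probe sets. Of the 22 member probe sets 13 were called and all 13 were higher than with the empty vector, where 34.2% of all probe sets were called in either direction. The median difference of the members was 0.89. The number of called probe sets was 1 of 1 for Twist1, 3 of 3 for Hand2, 1 of 1 for Snai1, 2 of 2 for Snai2, 3 of 4 for Zeb1, 3 of 5 for Zeb2 and 0 of 6 for Prrx1.

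**Figure D1:**
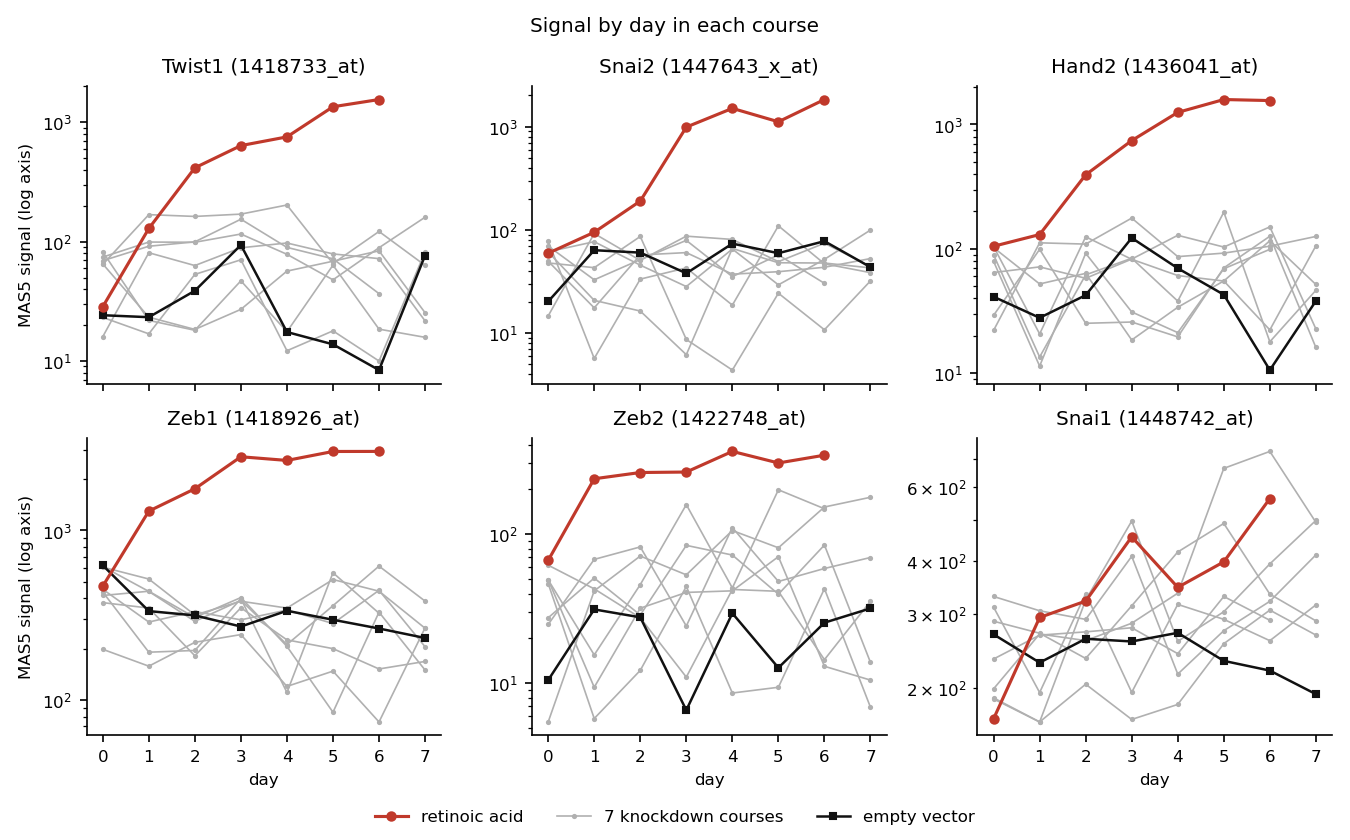
MAS5 signal (log axis) of 6 member probe sets by day, 1 panel each, with retinoic acid in red, the 7 knockdown courses in grey and the empty vector in black, 1 point per sample. Twist1 reached 1553 on day 6 of retinoic acid against a highest value of 203 in all other samples, whereas Snai1 under retinoic acid stayed within the range of the knockdown courses over all days.

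Twist1 was near the floor of the arrays on day 0 of the retinoic acid course and climbed on each later day. Its signal was 28.5, 129, 416, 639, 755, 1351 and 1553 on days 0 to 6 of retinoic acid, against 24.2, 23.3, 38.8, 93.8, 17.5, 13.8, 8.4 and 76.6 on days 0 to 7 of the empty vector. From day 2 on every retinoic acid sample lay above all 63 other samples of the study, whose highest value was 203. The late difference was 3.92 ± 0.22 (SE), or 15.1-fold, with an adjusted p of 2.16e-18.

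Hand2, the other helix-loop-helix member, followed the same days. Probe set 1436041_at had 105, 130, 394, 742, 1251, 1587 and 1557 on days 0 to 6 of retinoic acid, against 41.2, 27.9, 42.4, 122, 69.8, 42.8, 10.6 and 38.1 on days 0 to 7 of the empty vector. The samples from day 2 on were above all 63 others, the highest of which was 197. Late values were 4.52 ± 0.54 higher, or 22.9-fold (adjusted p = 2.95e-09). Probe set 1422221_at, made from the RefSeq transcript, was 1.45 ± 0.21 higher with an adjusted p of 2.18e-07, although its signal peaked at 281, below the table median. The third probe set, 1443854_at, was 0.98 ± 0.31 higher (adjusted p = 0.0113). That call was lost after quantile normalization, with only the 2 courses fitted, with each array centred on its median and without the retinoic acid sample of day 4 or the empty vector sample of day 5, and without the retinoic acid sample of day 6 the difference was -0.64.

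Snai2 rose most steeply between days 2 and 3 of retinoic acid. Probe set 1447643_x_at had 59.5, 94.9, 190, 989, 1501, 1113 and 1828 on days 0 to 6 of retinoic acid, against 20.3, 63.6, 60.3, 38.0, 73.7, 59.5, 77.8 and 43.6 on days 0 to 7 of the empty vector. All retinoic acid samples from day 2 on were above the other 63, whose highest value was 110. Its late difference was 4.17 ± 0.42, or 18.0-fold (adjusted p = 4.18e-11). The suffix of this probe set marks probes that can also bind other transcripts, and so the RefSeq-based 1418673_at matters beside it. That probe set had 38.9, 100, 35.2, 297, 415, 428 and 426 on days 0 to 6 of retinoic acid, against 27.7, 77.8, 25.1, 45.6, 10.9, 19.1, 47.0 and 11.2 on days 0 to 7 of the empty vector. It was above every other sample from day 3 on, and its late difference was 2.53 ± 0.27, or 5.79-fold (adjusted p = 1.69e-10).

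Snai1 moved least among the genes that were called. It had 169, 294, 322, 457, 347, 399 and 564 on days 0 to 6 of retinoic acid, against 268, 230, 262, 258, 270, 232, 220 and 193 on days 0 to 7 of the empty vector. The day 0 sample lay below the range of the empty vector course and those from day 1 on lay above it. Late in the course it was 0.72 ± 0.20 higher, or 1.65-fold (adjusted p = 0.00299). The call was lost after quantile normalization and without the retinoic acid sample of day 6.

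The RefSeq-based probe sets of Zeb1 and Zeb2 lay above all 63 other samples from day 1 of retinoic acid on. Zeb1 1418926_at had 470, 1300, 1761, 2719, 2587, 2921 and 2924 on days 0 to 6 of retinoic acid, against 623, 335, 316, 272, 336, 298, 264 and 233 on days 0 to 7 of the empty vector. The late difference was 2.99 ± 0.31, or 7.95-fold (adjusted p = 1.52e-10), from a gene that was already measured in stem cells. Zeb2 1422748_at had 66.8, 236, 260, 261, 360, 301 and 339 on days 0 to 6 of retinoic acid, against 10.5, 31.3, 27.7, 6.6, 29.5, 12.7, 25.5 and 31.8 on days 0 to 7 of the empty vector. It stayed between 236 and 360 from day 1 on, and the late difference was 2.22 ± 0.27, or 4.65-fold (adjusted p = 5.01e-09).

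The other Zeb probe sets disagreed with these in size. Zeb1 1446127_at was 1.42 higher (adjusted p = 2.52e-05), while Zeb1 1443005_at was 0.69 ± 0.20 higher (adjusted p = 0.00497) and lost its call after quantile normalization, with centred arrays, with day as a block and without the day 6 sample. Zeb1 1443005_at had 208, 275, 287, 339, 338, 402 and 437 on days 0 to 6 of retinoic acid and 200 to 288 in the empty vector course, and the groups overlapped until day 2. Zeb2 1434298_at was 1.42 higher (adjusted p = 0.000189), but its signal never passed 66.5, and without the day 6 sample the call was lost. Zeb2 1456389_at was 1.32 higher (adjusted p = 0.00691), a call lost with a pseudocount of 1 and without the sample of day 5 or day 6. Zeb1 1420243_at at 0.29, Zeb2 1454200_at at 0.79 and Zeb2 1458941_at at 0.52 were not called.

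Prrx1 stood apart from the other members. None of its 6 probe sets was called. Their late differences from the empty vector were 0.81 for 1439774_at, 0.46 for 1425528_at, 0.37 for 1432129_a_at, 0.29 for 1458004_at, -0.02 for 1425526_a_at and -0.04 for 1425527_at. The lead probe set 1425527_at averaged 106 ± 50.1 late under retinoic acid and 103 ± 29.9 with the empty vector (SD, n = 3 days each), and no sample of any course exceeded its table median. A change of Prrx1 was not detectable at these signals.

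**Figure D2:**
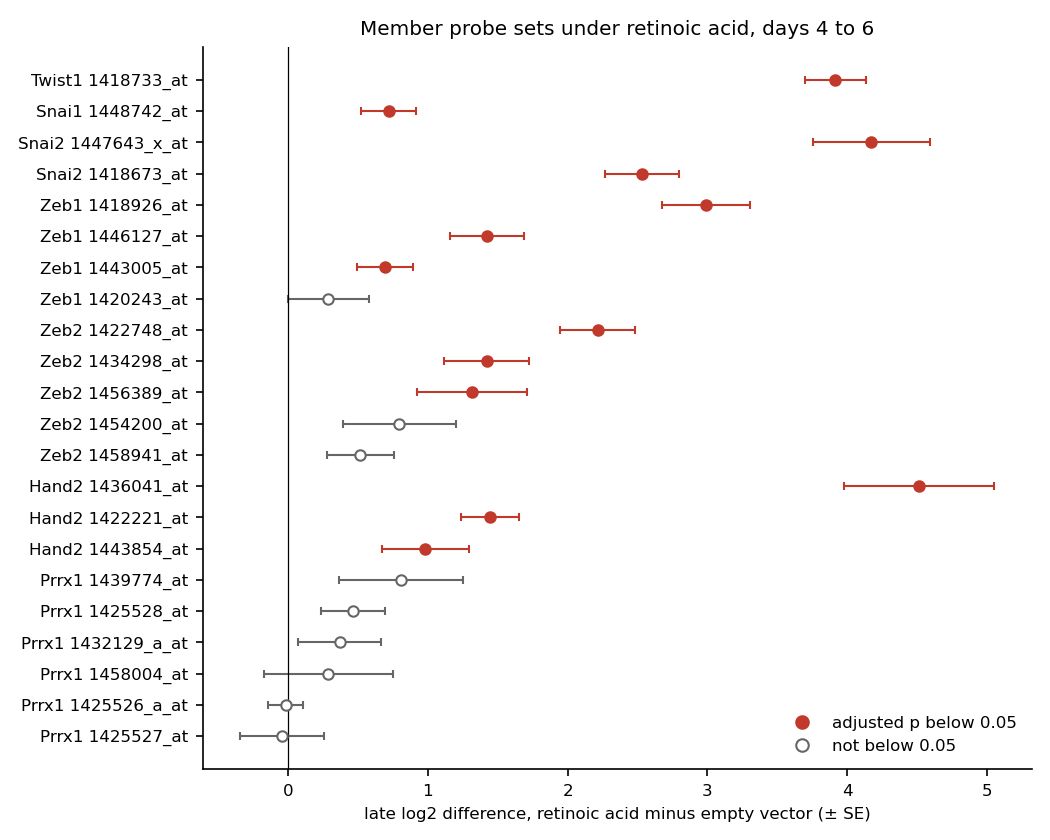
Late log2 difference of retinoic acid minus the empty vector for each of the 22 member probe sets (horizontal axis, points with SE), grouped by gene. Filled red points passed the adjusted threshold (13 probe sets, all to the right of 0) and open grey points did not, among them all 6 of Prrx1.

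Within the retinoic acid course, late values were set against the mean of days 0 and 1 without use of the empty vector. This change was called for 11 of 22 member probe sets, all upward, against 19.5% of all probe sets. It was 3.95 for Snai2 1447643_x_at and 2.10 for Snai2 1418673_at, 3.33 for Hand2 1436041_at, 3.19 for Twist1 and 0.83 for Snai1. For Zeb1 1418926_at it was 1.82, and for Zeb2 1422748_at 1.04, both smaller than their differences from the empty vector. The Zeb2 call was lost with a pseudocount of 1, after quantile normalization and with centred arrays, and fell to 0.41 on leaving out 1 sample. The calls depended on the ends of the course, with 3 to 11 called when 1 sample was left out and the fewest without day 0 or day 6. In the empty vector course 0 of 22 changed, where 0.224% of all probe sets did and 2 members had an unadjusted p below 0.05.

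Set against the mean of the 7 knockdown courses, late retinoic acid values were higher for 14 of 22 member probe sets and lower for 0, while 38.4% of all probe sets were called. The differences were 3.32 for Twist1, 4.57 for Snai2 1447643_x_at, 4.04 for Hand2 1436041_at, 3.14 for Zeb1 1418926_at and 1.63 for Zeb2 1422748_at. The other called probe sets of these genes differed less. They gave 2.11 for Snai2 1418673_at, 1.83 for Hand2 1422221_at and 0.95 for Hand2 1443854_at, lost without the retinoic acid sample of day 4. Zeb1 1446127_at gave 1.45 and the lead 1443005_at 0.70. Zeb2 1456389_at gave 1.48, 1434298_at 0.99 and the lead 1458941_at 0.57. Both lead calls were lost after quantile normalization and with centred arrays. Prrx1 1425528_at was 0.51 ± 0.17 higher (adjusted p = 0.018), a call lost after quantile normalization, with centred arrays and without the retinoic acid sample of day 4 or day 6, with a lowest value of 0.0956. Snai1, at 0.35 ± 0.15, was not called (adjusted p = 0.063).

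In the knockdown courses most members were not called against the empty vector, and the exceptions were Snai1, Snai2, Zeb2 and a low-level Twist1. Some differences that were not called were as large, down to -1.35 for Snai2 1447643_x_at and -0.93 for Zeb1 1418926_at. Upward they reached 1.08 for Hand2 1436041_at and 1.01 for Prrx1 1458004_at. Over the 7 courses 10 of 154 tests were called, in 4 genes, and all 10 were upward. The number called of 22 was 2 in the Nanog course (11.1% of all probe sets), 0 in the Oct4 course (7.88%), 3 in the Sox2 course (11.7%) and 1 in the Esrrb course (6%). It was 1 in the Tbx3 course (5.45%), 1 in the Tcl1 course (4.36%) and 2 in the Mm343880 course (8.13%). These shares are close to those of all probe sets and are not read as a property of the group. In the Oct4 course 2 members had an unadjusted p below 0.05. All 7 comparisons share the empty vector samples, so likeness between them is not counted as a result.

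**Figure D3:**
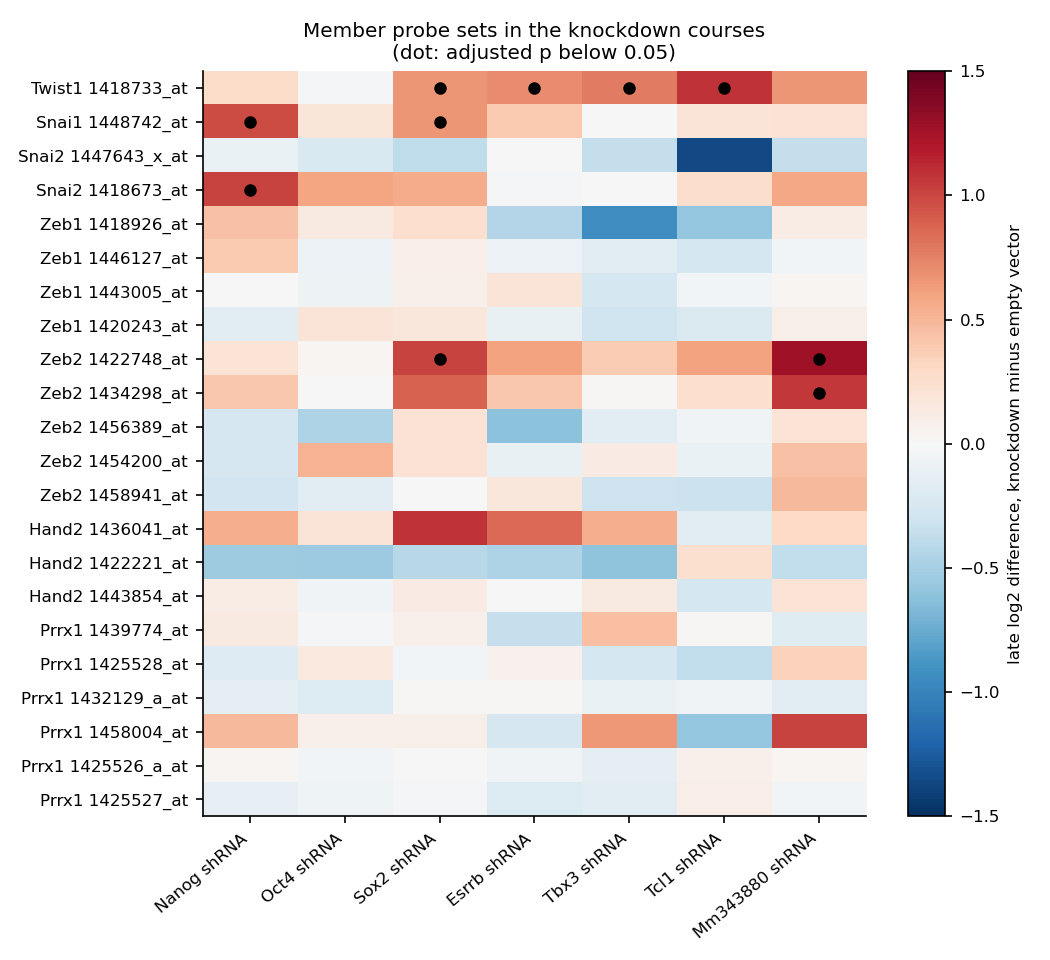
Late log2 difference of each knockdown course minus the empty vector (colour, red higher and blue lower) for the 22 member probe sets (rows) in the 7 knockdown courses (columns), with a dot where the adjusted p was below 0.05. The 10 dots lie in the rows of Twist1, Snai1, Snai2 1418673_at, Zeb2 1422748_at and Zeb2 1434298_at, and the Oct4 column has none.

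Snai1 reached its highest signals of the study in the Nanog knockdown. Its signal was 199, 269, 259, 285, 336, 665, 730 and 495 on days 0 to 7 of the Nanog course, against 268, 230, 262, 258, 270, 232, 220 and 193 on the same days of the empty vector. The Nanog samples overlapped the empty vector until day 2 and lay above its whole range from day 3 on. The late difference was 0.98 ± 0.19, or 1.97-fold (adjusted p = 0.000359), and it was called under all 11 alternatives and without any 1 of the 16 samples of these 2 courses. Within the Nanog course Snai1 changed by 1.06 ± 0.22 (adjusted p = 0.0012), a call lost without the day 0 sample and when only this course was fitted, and it was the 1 member called there, against 4.87% of all probe sets.

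Snai1 was also called in the Sox2 knockdown, by 0.66 ± 0.19 (adjusted p = 0.017), with 421, 492 and 334 on days 4 to 6 of Sox2 shRNA against 270, 232 and 220 with the empty vector. That call was lost without the spline, with day as a block, and without the day 5 sample of either course. In the Esrrb knockdown the difference was 0.39 ± 0.19 (adjusted p = 0.306), and single Esrrb samples reached 499 on day 3 and 500 on day 7. In the Oct4, Tbx3, Tcl1 and Mm343880 courses it ran from -0.01 to 0.21.

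By late mean signal (± SD, n = 3 days of 1 course) Snai1 ran from 577 ± 211 in the Nanog course over 436 ± 113 with retinoic acid, 416 ± 79.1 in the Sox2 course and 319 ± 69.3 in the Esrrb course. It went on with 289 ± 28.5 in the Tcl1 course, 287 ± 44.4 in the Mm343880 course, 270 ± 52.9 in the Oct4 course and 248 ± 62.0 in the Tbx3 course, and ended with 241 ± 26.4 with the empty vector. The SD ranges of all neighbours in this order overlapped.

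**Figure D4:**
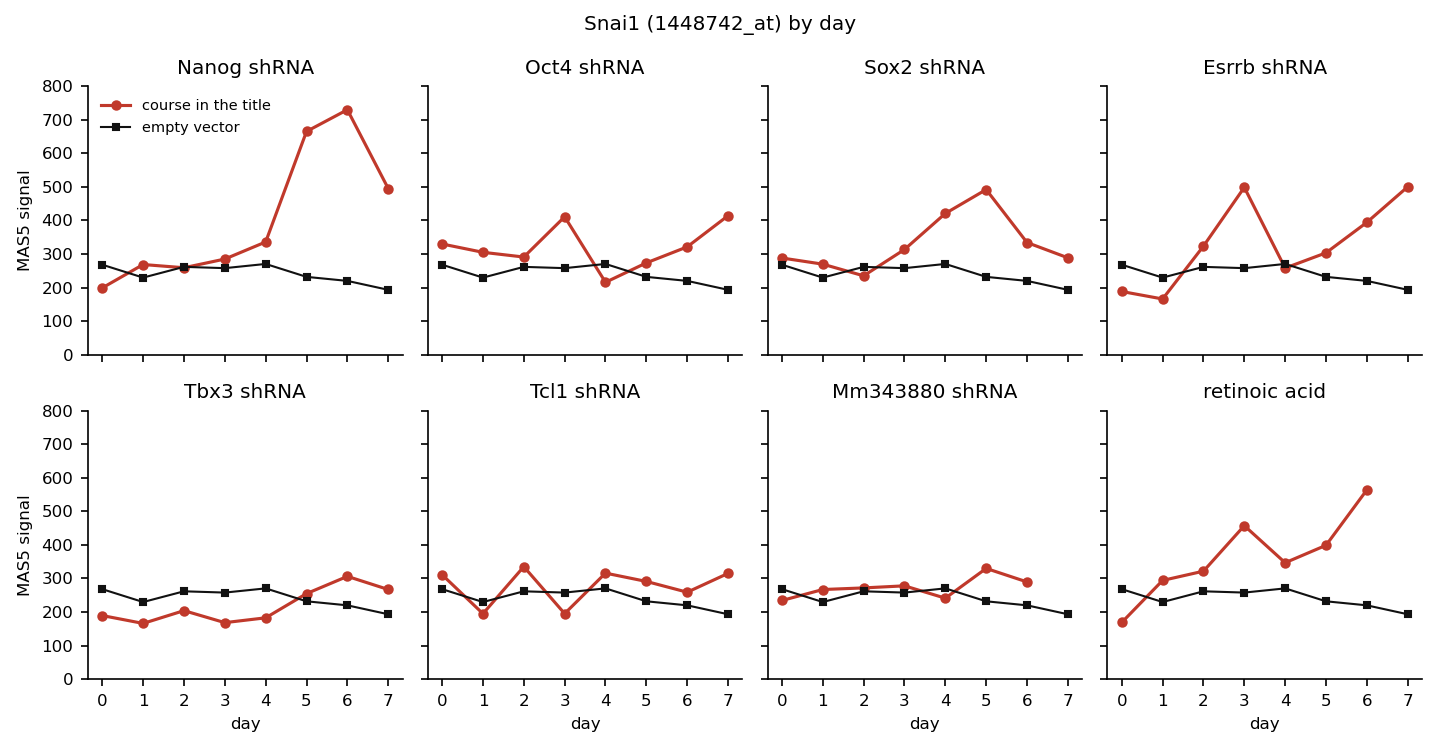
Snai1 MAS5 signal (linear axis from 0) by day, with 1 panel for each knockdown course and for retinoic acid (red) and the empty vector course repeated in each panel (black). In the Nanog panel the signal reached 665 on day 5 and 730 on day 6, while the empty vector stayed between 193 and 270.

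Snai2 was called in the Nanog course on its RefSeq-based probe set, at low signals. Probe set 1418673_at had 68.8, 29.4, 40.9, 73.1, 77.6, 134, 121 and 44.7 on days 0 to 7 of Nanog shRNA, against 27.7, 77.8, 25.1, 45.6, 10.9, 19.1, 47.0 and 11.2 with the empty vector. The 2 courses overlapped on the early days and were apart on days 4 to 6. Late Nanog values were 1.02 ± 0.26 higher, or 2.03-fold (adjusted p = 0.00697), and the call was lost without the spline. The other probe set, 1447643_x_at, had 18.7, 110 and 47.0 on days 4 to 6 of Nanog shRNA against 73.7, 59.5 and 77.8 with the empty vector, and was not called in any knockdown.

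Zeb2 was called in the Mm343880 and Sox2 knockdowns, again on the RefSeq-based probe set and at signals below the table median of 283.3. In the Sox2 course no other Zeb2 probe set was called, and 1454200_at, 1456389_at and 1458941_at were called in 0 of 7 knockdowns. Probe set 1422748_at had 49.4, 15.5, 45.9, 158, 43.6, 199 and 148 on days 0 to 6 of Mm343880 shRNA, against 10.5, 31.3, 27.7, 6.6, 29.5, 12.7 and 25.5 with the empty vector. Every Mm343880 sample from day 2 on was above the whole empty vector course. The late difference was 1.28, or 2.42-fold (adjusted p = 0.00127), and without the Mm343880 sample of day 6 it was not called. In the Sox2 course the signal was 5.5, 41.7, 71.4, 53.4, 106, 81.1, 152 and 177 on days 0 to 7, and the late difference was 1.02 (adjusted p = 0.00659), lost without the empty vector sample of day 5.

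Zeb2 1434298_at was also called in the Mm343880 course, by 1.06 (adjusted p = 0.0219), at 52.2, 23.2 and 27.8 on days 4 to 6 against 2.3, 0.9 and 1.9 with the empty vector. All these values are below the table median, and the call was lost without the Mm343880 sample of day 4 or day 6, or the empty vector sample of day 4 or day 5. Within the Mm343880 course both probe sets changed, by 0.99 (adjusted p = 0.0428) for 1422748_at and 1.14 (adjusted p = 0.0388) for 1434298_at. These were the 2 members called there, against 4.85% of all probe sets, and both calls were lost when only this course was fitted. The call of 1422748_at was lost under 6 of 9 alternatives and without any 1 of 6 of the 7 samples (0.73 to 1.78). That of 1434298_at was lost under 5 of 8 alternatives and without any 1 of 4 of the samples, days 0, 1, 4 and 6 (0.57 to 1.42).

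Twist1 was called in 4 knockdowns, all at signals below the table median of 283.3. The highest knockdown value was 203, on day 4 of the Tcl1 course, and the late empty vector values of 17.5, 13.8 and 8.4 were among the lowest in the study. The late differences were 1.09 in the Tcl1 course (adjusted p = 0.00137), 0.78 in the Tbx3 course (adjusted p = 0.0245), 0.71 in the Esrrb course (adjusted p = 0.0428) and 0.66 in the Sox2 course (adjusted p = 0.0413). The Tcl1 call was made under all 11 alternatives, and each of the other 3 was lost under 5 of them and without any 1 of the 3 late empty vector samples. No change over time within these courses was called for Twist1.

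The change from early to late days was called for 0 of 22 members in each of the remaining courses. The share of all probe sets called was 3.6% in the Oct4 course, 3.34% in the Sox2 course, 2.84% in the Esrrb course, 1.74% in the Tbx3 course and 0.931% in the Tcl1 course. The number of members with an unadjusted p below 0.05 was 0 in the Oct4 course, 5 in the Sox2 course, 2 in the Esrrb course, 2 in the Tbx3 course and 5 in the Tcl1 course. Hand2 and Prrx1 were not called against the empty vector in any of the 7 knockdowns, with smallest adjusted p-values of 0.0807 for Hand2 and 0.195 for Prrx1.

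The knockdowns of Nanog, Oct4 and Sox2 were set against those of Esrrb, Tbx3 and Tcl1 directly, as means of 3 late values each and without the empty vector. Members were called in 4 of 22 probe sets, 3 higher and 1 lower, and 18.7% of all probe sets were called. This count is close to that share and is not read as a property of the group. Zeb1 1418926_at differed by 0.93 ± 0.18 (adjusted p = 0.000129), with late means of 434 ± 82.7, 356 ± 81.7 and 397 ± 204 in the Nanog, Oct4 and Sox2 courses against 194 ± 37.5, 114 ± 37.3 and 208 ± 123 in the Esrrb, Tbx3 and Tcl1 courses (SD, n = 3 days each). The empty vector lay between them at 300 ± 36.0, and none of the 6 courses was called against it for this probe set, the nearest being Tbx3 at -0.93 ± 0.31 (adjusted p = 0.0706). The other Zeb1 probe sets were not called. The lead, 1443005_at, had late means of 249 ± 65.3, 218 ± 58.6 and 255 ± 59.5 in the Nanog, Oct4 and Sox2 courses. In the Esrrb, Tbx3 and Tcl1 courses it had 267 ± 3.66, 201 ± 69.3 and 239 ± 68.7. Snai2 1418673_at differed by 0.65 ± 0.15 (adjusted p = 0.00157) and Snai1 by 0.42 ± 0.11 (adjusted p = 0.00577). Twist1 differed by -0.55 ± 0.13 (adjusted p = 0.00111), which puts it lower in the Nanog, Oct4 and Sox2 courses. Every signal of Snai2 1418673_at and Twist1 in these 6 courses lay below the table median of 283.3. All 4 calls were made under every alternative run for them.

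A test of any difference among the 7 knockdowns called 8 of 22 member probe sets, against 25.8% of all probe sets. The gap between the highest and the lowest late value was 1.38 for Zeb1 1418926_at (adjusted p = 0.00308), 1.25 for Zeb2 1422748_at (adjusted p = 0.00281), 1.10 for Twist1 (adjusted p = 0.00288) and 0.99 for Snai1 (adjusted p = 0.00122). Zeb2 1422748_at had its highest late mean in the Mm343880 course, 130 ± 79.1, followed by the Sox2 course at 113 ± 36.1, and its lowest in the Oct4 course, 20.4 ± 19.7. The remaining 4 calls, for Snai2 1418673_at, Hand2 1422221_at, Zeb2 1434298_at and Zeb2 1458941_at, were each lost under 2 or more alternatives.

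Genes on which these factors act, or which surround them, were read from fixed lists. The mesenchymal effectors, matrix, adhesion and cytoskeletal genes of mesenchymal cells, were called higher in 16 of 18 measured genes under retinoic acid and lower in 0, with a median difference of 2.63 against 0.10 for all probe sets. In this comparison 34.2% of all probe sets were called. Col3a1, a fibrillar collagen, averaged 8306 ± 1068 late under retinoic acid and 92.9 ± 10.7 with the empty vector, a difference of 5.82 (adjusted p = 2.68e-19). Cdh2, the N-cadherin gene, was 3.71 higher (adjusted p = 1.10e-12) and Vim, the vimentin gene, 1.40 higher (adjusted p = 3.54e-08), both picked after their values were seen. Fn1 and S100a4 were the 2 that were not called.

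Epithelial genes differed the other way under retinoic acid, with 10 of 19 lower than with the empty vector, 3 higher and a median difference of -0.67. The share of all probe sets called was 34.2%. From early to late days within the retinoic acid course, 4 were called lower and 1 higher, with a median change of -0.26. There 19.5% of all probe sets were called. Within the empty vector course the median change of this list was 0.33, with 1 gene called higher, against 0.224% of all probe sets called. How much of the late difference comes from this change of the reference was not tested. Cdh1, the E-cadherin gene and classical target of Snai1, averaged 834 ± 540 late under retinoic acid and 4076 ± 553 with the empty vector. Late values were 2.37 lower (adjusted p = 4.48e-19). Esrp1, an epithelial splicing regulator, was 1.90 lower (adjusted p = 8.17e-09). The 3 that were higher were Dsp and Tjp1, which encode the desmosome and tight junction proteins desmoplakin and ZO-1, by 2.30 and 1.33, and Patj by 0.79.

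In each of the 7 knockdowns more epithelial genes were called higher than lower. The list of 19 had 7 higher and 0 lower in the Nanog course, 8 and 2 in the Oct4 course, 8 and 1 in the Sox2 course, 7 and 0 in the Esrrb course, 9 and 0 in the Tbx3 course, 5 and 0 in the Tcl1 course and 5 and 0 in the Mm343880 course. The genes called lower were Cdh1 in the Oct4 course, at -0.47 (adjusted p = 0.0114), and Esrp1 in the Oct4 and Sox2 courses, at -1.10 and -1.47. No member was called in the Oct4 course. The other 9 to 14 genes were not called, and the share of all probe sets called in these courses was 4.36% to 11.7%. Median differences of the list were 0.17 to 0.69, and within the empty vector course its median change over days was 0.33, with 1 gene called higher. Trophectoderm markers, from an epithelium of the early embryo, were also higher, in 7 of 8 in the Nanog, Oct4 and Sox2 courses, 5 in the Esrrb and Tbx3 courses and 4 in the Tcl1 and Mm343880 courses, with 0 lower, and their part in the epithelial counts was not tested. In the Nanog course, where Snai1 was highest, Cldn7, a tight junction claudin, averaged 3261 ± 1027 late and 827 ± 271 with the empty vector, a difference of 1.99 (adjusted p = 5.16e-09). The effectors had 5 higher and 4 lower in the Nanog course, 3 and 2 in the Oct4 course, 8 and 0 in the Sox2 course and 8 and 0 in the Esrrb course. They had 6 and 0 in the Tbx3 course, 5 and 0 in the Tcl1 course and 6 and 1 in the Mm343880 course. Tagln and Acta2, smooth muscle cytoskeletal genes, led the effectors in the Sox2, Esrrb, Tbx3, Tcl1 and Mm343880 courses. Their differences were 3.95 and 2.69 in the Sox2 course, 3.90 and 3.15 in the Esrrb course and 2.19 and 1.76 in the Tbx3 course. They were 3.35 and 2.91 in the Tcl1 course and 3.78 and 3.29 in the Mm343880 course.

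**Figure D5:**
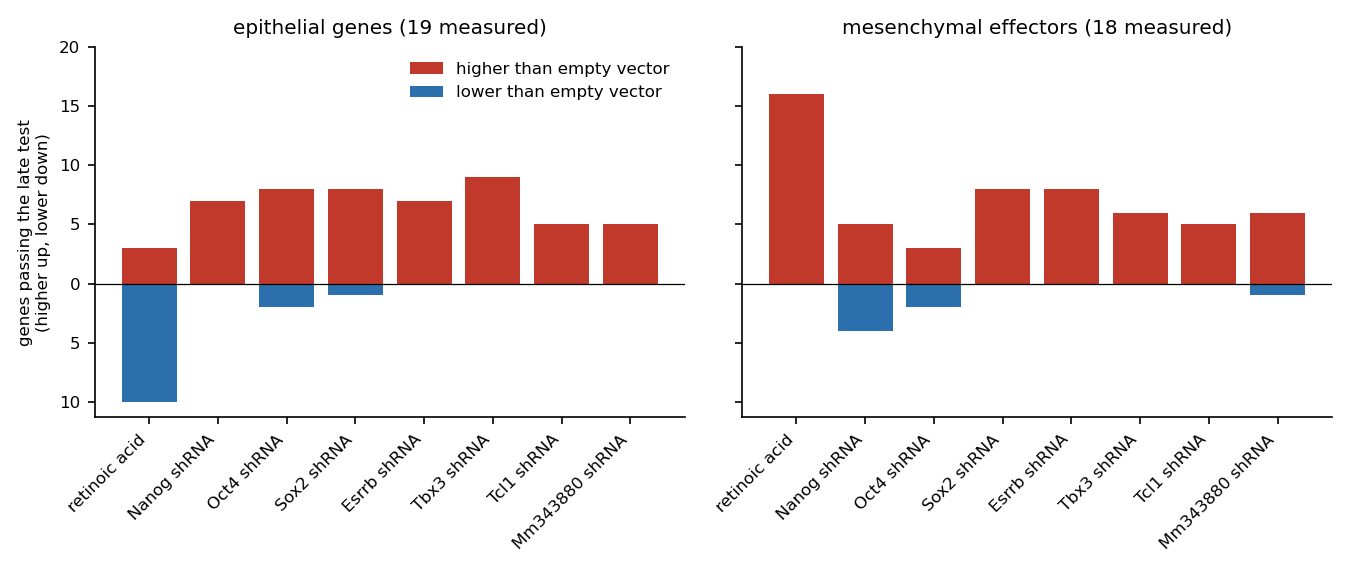
Number of genes of 2 fixed lists, epithelial genes and mesenchymal effectors, that passed the late test against the empty vector, higher (red, above 0) or lower (blue, below 0), with retinoic acid first and then the 7 knockdown courses. Under retinoic acid 10 epithelial genes were lower and 16 effectors higher, and the knockdown courses had 5 to 9 epithelial genes higher.

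Partners, paralogs and regulators of the members were called higher in 11 of 22 genes and lower in 2 under retinoic acid, with a median difference of 0.49. The E protein gene Tcf12, whose product pairs with Twist1, was 3.14 higher (adjusted p = 8.53e-16, picked after its value was seen). Foxc2, a forkhead factor of mesenchyme, was 4.67 higher and Hmga2, an architectural chromatin factor, 4.65 higher. Snai3, the third Snail gene, was 1.76 lower (adjusted p = 2.81e-06). Signals known to induce the transition were called higher in 7 of 18 genes and lower in 0, with a median of 0.55. That share is near the 34.2% of all probe sets called in this comparison and is not read as a property of the list. The differences passing the test were led by the ligand gene Tgfb3 at 4.38 and its receptor Tgfbr1 at 3.49. In the Nanog course the same list had 1 higher and 2 lower, Tgfbr1 at 1.25 against Bmp7 at -1.12 and Bmp4 at -0.87. There 11.1% of all probe sets were called, and with so few genes this count is not read as a property of the list.

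Markers of other cell types also differed late under retinoic acid, where 34.2% of all probe sets were called. Of 11 fibroblast markers measured 6 were higher and 1 lower, and their summed signal on days 4 to 6 was 16557 to 23912 under retinoic acid against 1823 to 2161 with the empty vector. On days 0 and 1 it was 1749 to 1928 against 1249 to 1498. The matrix genes Col3a1, Col1a2, Col1a1 and Postn, with Mgp and Pdgfra, were the 6 that were higher, Thy1 was lower by 0.80, and Dcn, Lum, Fap and Dpt were not called. Col3a1, Col1a2, Col1a1, Postn and Pdgfra also stand in the effector list, so the 2 lists are not separate evidence. Of the other lists, endoderm markers had 3 higher and 0 lower of 6, neural markers 4 and 1 of 6, mesoderm markers 1 and 1 of 5 and trophectoderm markers 4 and 2 of 8. With so few genes per list beside the 34.2%, these counts are not read as a property of the lists. In the knockdowns 0 or 1 of 11 fibroblast markers were higher and 0 or 1 lower, where 4.36% to 11.7% of all probe sets were called. More cells of a type and more RNA per cell cannot be told apart in such samples, and the part of these cell types in the members' signals was not tested.

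The genes whose signals ran most like each lead probe set over the 70 samples of the same table were named by Pearson's r, as a description across samples that share courses. Twist1 was most like Mgst1 (r = 0.85), Nrep (r = 0.84) and Col3a1 (r = 0.83). Without the retinoic acid samples the same r were 0.42, 0.24 and 0.25, so these likenesses rest on that course. The lead probe set of Hand2 was most like Ctxn1 (r = 0.84), Hoxc5 (r = 0.81) and Nr2f2 (r = 0.81), and that of Snai2 most like Tmem33 (r = 0.87), Mfap2 (r = 0.86) and Ctxn1 (r = 0.86), with r of 0.20 to 0.35 and 0.25 to 0.29 without retinoic acid. The RefSeq-based Snai2 1418673_at had other neighbours, Lpl (r = 0.80), Pank3 (r = 0.78) and Gata6 (r = 0.77). Without retinoic acid these r were 0.48, 0.47 and 0.46. For Snai1 the likeness to Gata2, a transcription factor of trophoblast and blood, was 0.75 over 70 samples and 0.73 over the 63 without retinoic acid. Caml (r = 0.72) and Pip5k1a (r = 0.71) came next. The lead probe set of Zeb1, 1443005_at, was most like Tbc1d5 (r = 0.67), Disp1 (r = 0.65) and 2700081O15Rik (r = 0.61), with r of 0.38 to 0.51 without retinoic acid. That of Zeb2, 1458941_at, was most like 2310015A10Rik (r = 0.55), 5830428M24Rik (r = 0.52) and Ttll10 (r = 0.52), with r of 0.49 to 0.54 without it. The lead probe set of Prrx1 never passed its table median and was not compared. Zeb1 1418926_at was most like Fam126a (r = 0.88) and Zeb2 1422748_at most like F2r (r = 0.83), the thrombin receptor gene, with r of 0.56 and 0.61 without retinoic acid.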

How the data were processed

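Signals were deposited as intensity on a linear scale, 1 value per probe set and array, and the authors made them with MAS5 per the submitters' processing notes, which give no version. Of 45265 probe sets 128 were controls and were left out, and 35041 named 1 gene in the platform annotation, 936 several and 9160 none. The log2 scale was used after adding the 20th percentile of a table to its signals (63.3 on A, 21.9 on B), and no filter on low signals was set. Arrays were used with the deposited scaling, and the median array signal lay between 236 and 383 on A and between 64.4 and 128.4 on B. No pair of arrays was identical, the highest correlation being 0.984.

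All 70 samples entered 1 model per table, made with limma 3.58.1 (R 4.3.3; lmFit, eBayes with an intensity trend), in which each course had its own natural spline over days of 3 degrees of freedom, which left 34 residual degrees of freedom. Late values averaged the curve over days 4 to 6 and early values over days 0 and 1. The Benjamini-Hochberg adjustment ran over all 45137 probe sets, with a threshold of 0.05. The step was run on simulated data with independent noise around constant means and with shifts in the Nanog course only. Such data do not cover the variation between repeated courses, which this study does not hold.

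The members, the gene lists and the tests were chosen with earlier results of these data known. The text names all member probe sets, for each gene a lead probe set (the highest mean percentile rank), the 3 genes most like it by Pearson's r in the same table where it passed the table median, and up to 2 genes per list, direction and comparison with the largest differences that passed. RefSeq-based probe sets of Snai2, Zeb1 and Zeb2 in the likeness search and the r without retinoic acid were chosen after the values were seen. So were Cdh2, Vim, Tcf12, Patj and the fibroblast markers named beyond that rule. Gene positions and promoter windows are from RefSeq on GRCm38.p6. Alternatives were a pseudocount of 1 or of the table median, a filter, quantile normalization, no spline or one with 2 degrees of freedom, day as a block, only the compared courses in the model, eBayes with no trend, 1 probe set per gene and leaving out each sample, and, chosen after seeing the data, centring each array on its median.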

Additional observations from a re-analysis of the deposited data

Results flagged for a closer look

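In groups of 7 or 8 days of 1 course, 9 single days stood apart from the other days of the same course. They came from 135 such groups over the 15 member probe sets called somewhere, and chance alone flags about 1 in 20 groups. Since days are not replicates, a course that changes on 1 day is picked up in the same way. Zeb1 1418926_at had 623 on day 0 of the empty vector, where the other days had 233 to 336. Zeb2 1422748_at had 66.8 on day 0 of retinoic acid, where the later days had 236 to 360. Zeb2 1434298_at had 16.6 on day 7 of the Tbx3 course, where the others had 0.7 to 6.2, and 17.6 on day 3 of the empty vector, where the others had 0.9 to 4.9. Hand2 1436041_at had 22.1 on day 0 of the Esrrb course, where the others had 86.6 to 176.7. Hand2 1443854_at had 167 on day 7 of the Tbx3 course, where the others had 12.6 to 32.0. Zeb1 1446127_at had 95.1 on day 0 of the Sox2 course, where the others had 5.8 to 20.7, and 72.0 on day 0 of the empty vector, where the others had 10.8 to 22.1. Snai2 1447643_x_at had 17.6 on day 1 of the Sox2 course, where the others had 37.3 to 60.3.

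The knockdown courses differed from each other, by a test of the difference itself, in 8 probe sets. The gap between the highest and lowest late log2 value was 1.38 for Zeb1 1418926_at, 1.25 for Zeb2 1422748_at, 1.10 for Twist1 and 1.06 for Zeb2 1434298_at (adjusted p = 0.0294). It was 1.05 for Snai2 1418673_at (adjusted p = 0.017), 0.99 for Snai1, 0.85 for Hand2 1422221_at (adjusted p = 0.0182) and 0.81 for Zeb2 1458941_at (adjusted p = 0.046). The Nanog, Oct4 and Sox2 courses differed from the Esrrb, Tbx3 and Tcl1 courses by 0.93 for Zeb1 1418926_at, 0.65 for Snai2 1418673_at, 0.42 for Snai1 and -0.55 for Twist1. These 4 of 22 are close to the 18.7% of all probe sets called, and are not read as a property of the group.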

How the results depend on the processing

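Of 63 called tests of single member probe sets, 29 passed under every alternative and without any 1 sample, 24 were lost under at least 1 alternative and 33 without at least 1 sample. With 1 sample per course and day and no repeated course, depth is not at issue, but 8 probe sets never rose above their table median and carry little signal over background. Counts of called members against the empty vector moved as follows. The Nanog count of 2 was 1 with no spline and 1 with 1 probe set per gene, and the Sox2 count of 3 was 1 with day as a block. The Esrrb count of 1 was 2 with a spline of 2 degrees of freedom, and 0 with a pseudocount at the table median, with the filter, with no spline, with day as a block and in a fit of only the courses compared. The Tbx3 count of 1 was 0 with a pseudocount at the table median, with a spline of 2 degrees of freedom, with no spline and with day as a block. The Tcl1 count of 1 was 2 with a pseudocount of 1, the filter, a spline of 2 degrees of freedom, eBayes without trend or 1 probe set per gene. The Mm343880 count of 2 was 1 with the filter and with 1 probe set per gene. With 1 probe set per gene, where only 7 of the 22 are tested, the counts were 5 for retinoic acid against the empty vector, 5 for its change over days, 5 against the knockdown mean, 2 for the Nanog, Oct4 and Sox2 courses against the Esrrb, Tbx3 and Tcl1 courses, and 3 for differences among the knockdowns.

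The change over days in the Nanog course, 1 call, was 0 when only this course was fitted, and in the Sox2 course 1 was called with a spline of 2 degrees of freedom in place of 0. The 2 calls of the Mm343880 course were 1 with a pseudocount of 1, quantile normalization, a spline of 2 degrees of freedom, no spline or eBayes without trend, and 0 with the filter, only this course, 1 probe set per gene or arrays centred on their medians. The 11 calls of the retinoic acid course were 7 after quantile normalization. The 8 calls among the knockdowns were 5 with a pseudocount of 1, a spline of 2 degrees of freedom, day as a block or centred arrays. For these moves the cause was not tested.

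Leaving out 1 sample at a time gave 2 to 3 calls against the empty vector in the Nanog course, 0 to 1 in the Oct4 course, 0 to 4 in the Sox2 course, 0 to 1 in the Esrrb course, 0 to 2 in the Tbx3 course, 1 to 2 in the Tcl1 course, 0 to 3 in the Mm343880 course and 9 to 13 under retinoic acid. For the change over days it gave 0 to 1 in the Nanog, Sox2 and Tcl1 courses, 0 to 2 in the Mm343880 course and 3 to 11 under retinoic acid, the fewest without its day 0 or day 6 sample. It gave 9 to 15 for retinoic acid against the knockdown mean, 4 to 5 for the Nanog, Oct4 and Sox2 courses against the Esrrb, Tbx3 and Tcl1 courses, and 6 to 9 among the knockdowns. Without the retinoic acid sample of day 6, for which the curve then has to be extended, 3 tests of Hand2 1443854_at changed sign, with -0.64 against the empty vector, -0.28 over days and -0.67 against the knockdown mean, where leaving out other samples gave up to 1.64, 1.99 and 1.60. No paired analysis was possible because the samples carry no replicate numbers, only days, and day was used as a block instead.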
